A study of Mus musculus with 8 samples.

Results

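The genes described here encode receptors of the epidermal growth factor (EGF) family and their ligands: the receptors Egfr, Erbb2 and Erbb3, and the ligands Egf, Areg, Ereg, Btc, Hbegf and Tgfa. They were taken as every probe set that the platform annotation names for one of these 9 genes, and 17 of the 22626 probe sets tested qualified, for 8 of the genes. No probe set was named for Areg, the amphiregulin gene, which is not analysed here. Egfr had 5 probe sets, Tgfa 3, Erbb3, Btc and Hbegf 2 each, and Erbb2, Egf and Ereg 1 each.

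The samples were ventral prostates of FVB mice aged 20 weeks, each on 1 Affymetrix array. The 4 transgenic samples carried a transgene that overexpresses a constitutively active p110 beta, one of the catalytic isoforms of PI3-kinase, and had mouse prostatic intraepithelial neoplasia, a lesion in which atypical epithelial cells grow within the glands. The other 4 were wild type samples described as normal. The study asked how the diseased prostate differs from the normal one. The promoter of the transgene, the number of lines and the number of animals behind the arrays are not given in the sources used here, so a p-value speaks to the spread among these arrays, part of which may be technical. Values are log2 RMA values of a probe set, so a difference of 1 is a 2-fold change, and levels of different genes were not set against each other.

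In this family a ligand is made as a membrane-anchored precursor, is cut free by a metalloprotease of the ADAM family and binds a receptor on the same or a neighbouring cell. Ligand-bound receptors pair, phosphorylate each other and recruit adaptors that feed the Ras-MAP kinase and PI3-kinase pathways. ERBB2 has no known ligand of its own and acts as a partner, while ERBB3 has little kinase activity and carries several docking sites for the regulatory subunit of PI3-kinase. In the human prostate, EGF is secreted into the prostatic fluid.

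Expression of the family differed gene by gene. Tgfa, encoding transforming growth factor alpha, and Erbb3 rose in transgenic prostates by 1.40-fold and 1.31-fold. Hbegf, encoding heparin-binding EGF-like growth factor, fell, with a level 1.71-fold higher in wild type. Egf was lower in transgenic samples without passing the test, and Egfr, Erbb2, Ereg and Btc did not pass it. Over all 17 probe sets, 2 rose, 2 fell and 13 did not pass (limma, adjusted p under 0.05 over all probe sets). Of all 22626 probe sets, 5.48% rose and 4.36% fell, together 9.84%. The groups did not overlap for 4 of the 17 probe sets, the 4 that passed, and for 15.0% of all probe sets. The median log2 fold change was 0.01 over the 17 probe sets and -0.03 over all probe sets. Of the 17 probe sets, 10 lay below the median of their array on all 8 arrays, a range in which background can set the value and changes can be missed.

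**Figure D1:**
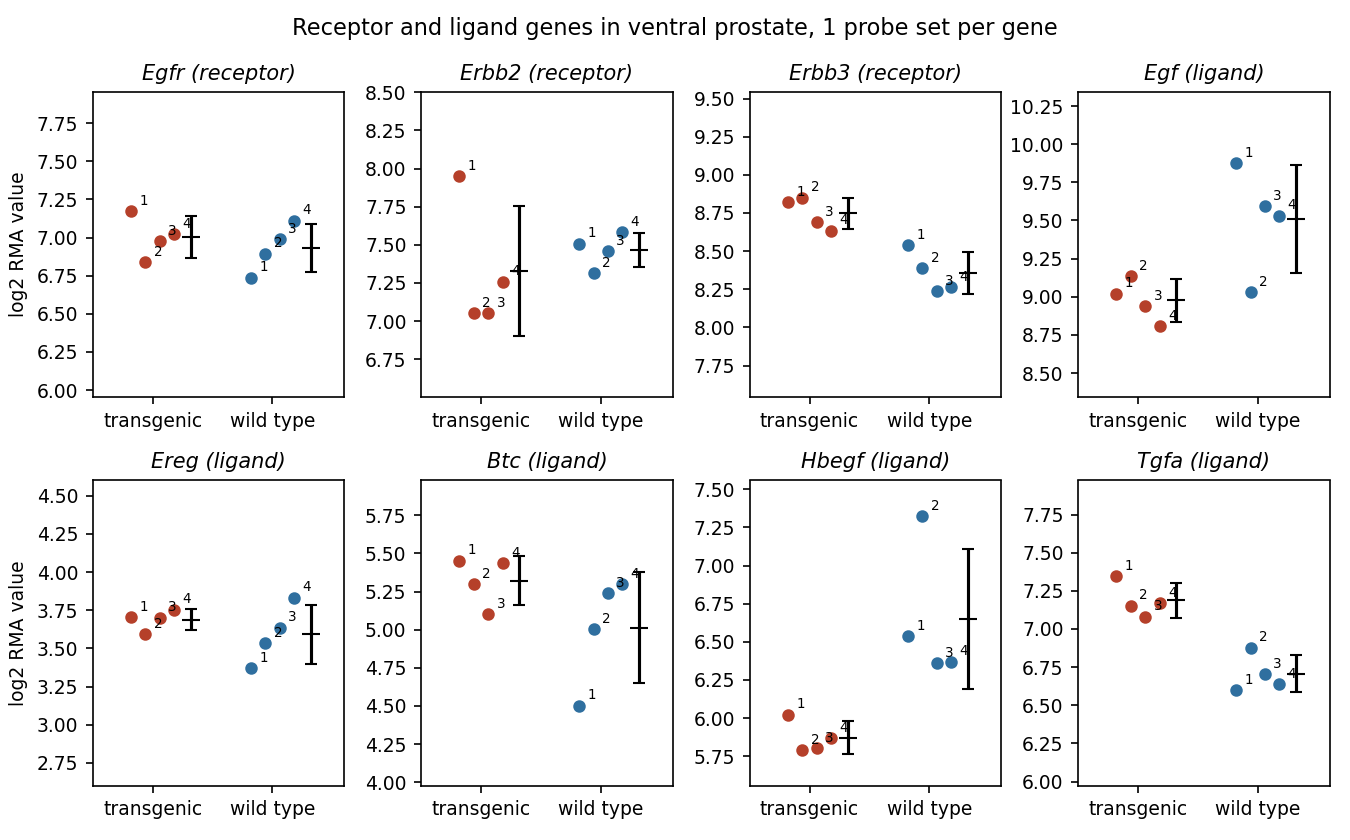
Log2 RMA values (y axis, a span of 2 log2 units in each panel) of the 8 measured genes in the transgenic (red, left) and wild type arrays (blue, right), 1 probe set per gene; digits give the array number in its group, and bars the mean and SD of 4 arrays. The groups do not overlap for Erbb3, Hbegf and Tgfa, while wild type array 2 stands apart as high for Hbegf and low for Egf.

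Among the receptors, Erbb3 was the gene that passed the test. Its probe set 1434606_at had 8.82, 8.85, 8.69 and 8.63 in transgenic arrays 1 to 4, against 8.54, 8.39, 8.24 and 8.26 in wild type arrays 1 to 4. The highest wild type array lay just under the lowest transgenic one, so the groups did not overlap. The means were 8.75 ± 0.10 in transgenic and 8.36 ± 0.14 in wild type samples (SD, n = 4 each), a log2 fold change of 0.39 ± 0.10 (SE; limma adjusted p = 0.0348). This call was narrow. It was lost when any single array other than wild type array 1 was left out (7 of the 8 arrays), with limma adjusted p up to 0.118, while the log2 fold change stayed between 0.35 and 0.45.

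The other Erbb3 probe set, 1452482_at, averaged 4.14 ± 0.09 in transgenic and 4.12 ± 0.17 in wild type samples (SD, n = 4 each) and did not pass (limma adjusted p = 0.947). It lay below the median on every array. With the mean of both probe sets, Erbb3 was at a log2 fold change of 0.21 and did not pass (limma adjusted p = 0.127).

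Egfr, the receptor for EGF and TGF alpha, was at 7.17, 6.84, 6.98 and 7.02 in transgenic arrays 1 to 4 and 6.74, 6.89, 6.99 and 7.11 in wild type arrays 1 to 4 on its brightest probe set, 1460420_a_at. The groups overlapped almost wholly. The log2 fold change was 0.07, with a 95% interval from -0.18 to 0.32 (limma adjusted p = 0.802). The remaining 4 Egfr probe sets lay below the median on all arrays, had log2 fold changes from -0.04 to 0.19 and did not pass.

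Erbb2 had 7.95 in transgenic array 1 and 7.05, 7.05 and 7.26 in transgenic arrays 2 to 4, against 7.51, 7.32, 7.46 and 7.58 in wild type arrays 1 to 4. Transgenic array 1 was above every wild type array and the other transgenic arrays were below every wild type array. The log2 fold change was -0.14 with a 95% interval from -0.53 to 0.26 (limma adjusted p = 0.748). Without transgenic array 1 it was -0.35 and did not pass (limma adjusted p = 0.0805).

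The changes of the receptors were also set against each other within arrays, on the brightest probe set of each gene. The log2 fold change of Erbb3 exceeded that of Erbb2 by 0.53 and that of Egfr by 0.32, and that of Egfr exceeded that of Erbb2 by 0.21. None of the 3 pairs differed beyond the spread between arrays (two-sided exact permutation p = 0.0857, 0.143 and 0.314, or 0.214, 0.214 and 0.314 adjusted over the 3 pairs), where the smallest p the 8 arrays allow is 0.0286. The rise of Erbb3 is therefore not shown to be a change of Erbb3 alone among the receptors.

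**Figure D2:**
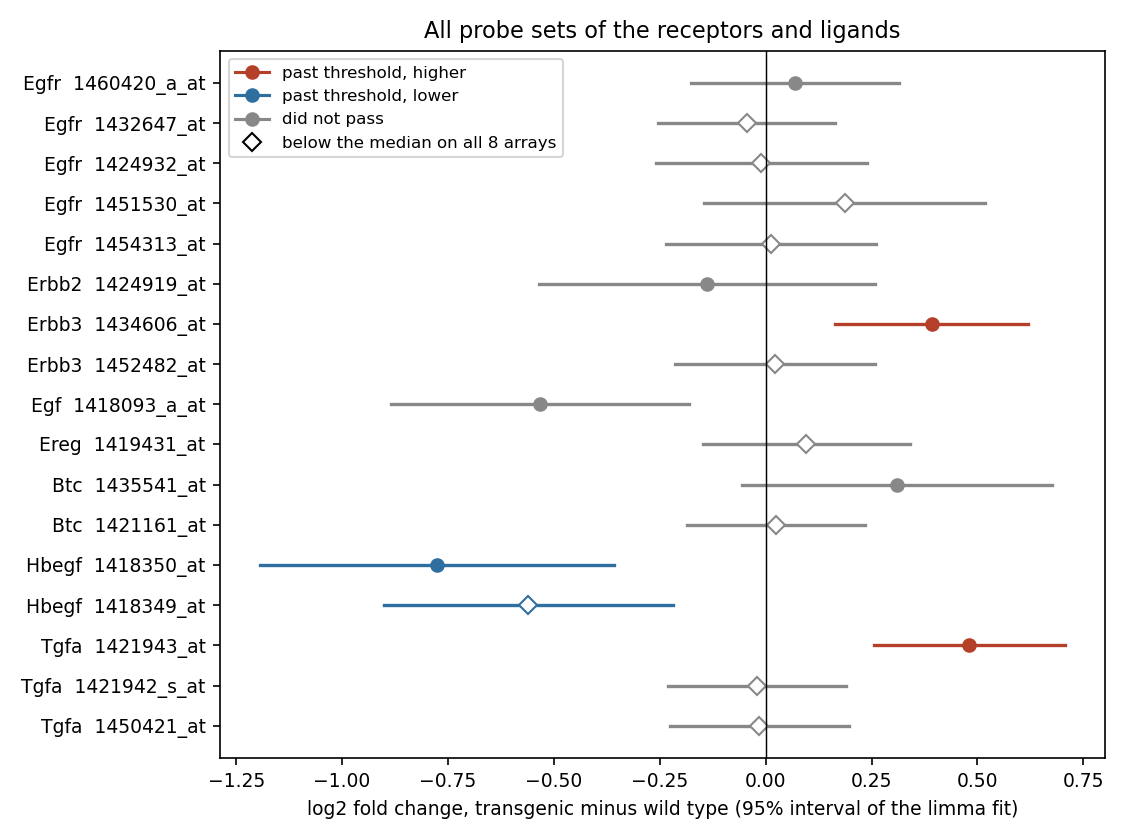
Log2 fold change (x axis, transgenic minus wild type) of each of the 17 probe sets, with the 95% interval of the limma fit; open diamonds mark probe sets below the array median on all 8 arrays. Tgfa and Erbb3 each have 1 probe set past the threshold and the remaining ones near 0, while both Hbegf probe sets are lower.

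Tgfa had the smallest p of all 17 probe sets. TGF alpha binds the EGF receptor and is made by many epithelia. On probe set 1421943_at it was at 7.34, 7.15, 7.08 and 7.17 in transgenic arrays 1 to 4 and at 6.60, 6.88, 6.71 and 6.64 in wild type arrays 1 to 4. Every transgenic array was above every wild type array. The means were 7.19 ± 0.11 in transgenic and 6.71 ± 0.12 in wild type samples (SD, n = 4 each), with a log2 fold change of 0.48 ± 0.10 (SE; limma adjusted p = 0.0116). The call held without any single array, with limma adjusted p up to 0.037.

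The other 2 Tgfa probe sets, 1421942_s_at and 1450421_at, did not pass, at log2 fold changes of -0.02 and -0.01 with 95% intervals from -0.23 to 0.19 and from -0.23 to 0.20. Both lay below the median on all arrays. With the mean of the 3, Tgfa was at a log2 fold change of 0.15 (limma adjusted p = 0.336), so the rise rests on 1 of its 3 probe sets.

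Hbegf encodes a ligand of EGFR and ERBB4 that is induced early after many stimuli. Its probe set 1418350_at had 6.02, 5.79, 5.81 and 5.87 in transgenic arrays 1 to 4, against 6.54, 7.32, 6.36 and 6.37 in wild type arrays 1 to 4. All transgenic arrays were below all wild type arrays, and wild type array 2 was the highest. The means were 5.87 ± 0.11 in transgenic and 6.65 ± 0.46 in wild type samples (SD, n = 4 each), and Hbegf fell by 0.78 on the log2 scale (SE 0.19; limma adjusted p = 0.0239).

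The second Hbegf probe set, 1418349_at, had the same order of groups, at 3.94, 4.16, 4.01 and 4.21 in transgenic arrays 1 to 4 and 4.36, 5.13, 4.47 and 4.59 in wild type arrays 1 to 4. It lay below the median on all arrays, and it fell by 0.56 on the log2 scale (SE 0.16; limma adjusted p = 0.0438). Without wild type array 2 the log2 fold changes of the probe sets 1418350_at and 1418349_at were -0.55 (limma adjusted p = 0.0114) and -0.40 (limma adjusted p = 0.0667). The call on 1418350_at was lost without transgenic array 2, 3 or 4 (limma adjusted p from 0.066 to 0.074), and that on 1418349_at when any of 7 arrays was left out, wild type array 1 being the exception (limma adjusted p up to 0.118).

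Egf, the founding ligand of the family, was at 9.02, 9.14, 8.94 and 8.81 in transgenic arrays 1 to 4 and at 9.88, 9.03, 9.59 and 9.53 in wild type arrays 1 to 4. Wild type array 2 lay within the transgenic range, and the other wild type arrays lay above it. The means were 8.98 ± 0.14 in transgenic and 9.51 ± 0.35 in wild type samples (SD, n = 4 each), a log2 fold change of -0.53 ± 0.16 (SE) that missed the threshold (limma adjusted p = 0.0614). Without wild type array 2 the log2 fold change was -0.69 and passed (limma adjusted p = 0.00708). It also passed under quantile (limma adjusted p = 0.0237) and cyclic loess normalization (limma adjusted p = 0.0352), with the dimmest 40% of probe sets left out (limma adjusted p = 0.0494) and with array weights (limma adjusted p = 0.0498). Egf missed the threshold when any other single array was left out (limma adjusted p up to 0.166). It also missed with a trend and robust prior (limma adjusted p = 0.0616) and with the replicate block (limma adjusted p = 0.0976).

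Betacellulin and epiregulin, the products of Btc and Ereg, are ligands of EGFR and ERBB4. Btc had 5.45, 5.30, 5.10 and 5.44 in transgenic arrays 1 to 4 and 4.50, 5.0, 5.24 and 5.30 in wild type arrays 1 to 4 on probe set 1435541_at, which was below the array median on 7 of 8 arrays. The groups overlapped, and the log2 fold change of 0.31 did not pass (95% interval from -0.06 to 0.68; limma adjusted p = 0.336). The second Btc probe set, at 0.02, and the Ereg probe set, at 0.10, were below the median on all arrays and did not pass. In the RefSeq gene table Epgn, Ereg, Areg and Btc follow each other on chromosome 5, and of this cluster the 3 genes with a probe set, Epgn among them, did not pass.

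The start regions of Tgfa, the ligand gene that rose, and of Egf, the ligand gene whose lower level missed the threshold, are shown because these genes lay on opposite sides of 0. They come from RefSeq promoter windows of build GRCm38.p6, in which 5 of the 8 measured genes had a match (Egfr, Erbb2, Egf, Btc and Tgfa). Each runs 5′ to 3′ from 250 bases before the start of the gene's transcript to 50 bases after it. Capitals mark GGGCGG, the core of the GC box bound by Sp1, on either strand (CCGCCC on the other), and TTTAAA, which resembles the TATA box and reads the same on both strands.
Tgfa (chr6:86194972-86195271, + strand): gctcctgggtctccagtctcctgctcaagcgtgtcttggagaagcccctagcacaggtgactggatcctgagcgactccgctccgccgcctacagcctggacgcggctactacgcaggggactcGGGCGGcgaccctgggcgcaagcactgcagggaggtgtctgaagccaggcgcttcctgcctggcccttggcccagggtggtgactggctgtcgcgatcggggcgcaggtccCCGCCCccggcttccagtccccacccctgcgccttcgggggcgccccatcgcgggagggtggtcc
Egf (chr3:129755273-129755572, - strand): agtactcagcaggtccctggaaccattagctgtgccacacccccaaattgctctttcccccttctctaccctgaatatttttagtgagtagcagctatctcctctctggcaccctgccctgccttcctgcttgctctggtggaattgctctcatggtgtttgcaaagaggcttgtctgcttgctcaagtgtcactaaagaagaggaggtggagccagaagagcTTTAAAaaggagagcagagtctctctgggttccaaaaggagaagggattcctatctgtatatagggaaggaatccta

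The Tgfa window held 2 GC box matches and no TTTAAA, and the Egf window held 1 TTTAAA and no GC box match. The searched motifs TATAAA, the TATA box, and TGACTCA, the AP-1 site, were in neither window on either strand, and no matches overlapped. Of all 32851 windows, 35.7% held GGGCGG, 13.2% TTTAAA, 13.6% TATAAA and 5.20% TGACTCA. G and C made up 70.7% of the Tgfa window and 49% of the Egf window, against a median of 52.7% over all windows. These matches describe the letters of the windows, and no measurement here bears on factors bound there.

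Other genes of the pathway were read from lists of receptors and ligands, shedding enzymes, adaptors, inhibitors and EGF-induced transcripts, with 1 probe set per gene. Adam17, Cblc, Socs5, Errfi1, Lrig1, Fos, Egr1, Phlda1 and Plaur are named outside the naming rule, after their values were seen. Of 73 measured genes 8 rose, 2 fell and 63 did not pass, where 5.99% of all 12393 genes rose, 4.98% fell and together 11.0% passed. The median log2 fold change was -0.02 over the 73 genes and -0.04 over all genes. Of the 6 further receptor and ligand genes, 4 were measured, Erbb4, Epgn, Nrg3 and Nrg4. None of these 4 passed in limma, none had an unadjusted p under 0.05, and all 4 lay below the median on every array. The smallest p was that of Epgn, encoding epigen, at a log2 fold change of -0.21 (limma adjusted p = 0.323).

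Among 10 measured genes of ligand shedding and trafficking, 2 rose, 0 fell and 8 did not pass. Over all genes 5.99% rose and 4.98% fell. Adam9, encoding a membrane metalloprotease, had 9.42, 9.53, 9.49 and 9.29 in transgenic arrays 1 to 4, against 8.60, 8.75, 8.42 and 8.12 in wild type arrays 1 to 4. The groups were well apart, with a 1.94-fold rise (log2 fold change 0.96 ± 0.13, SE; limma adjusted p = 0.000791). Adam10, whose product sheds EGF and betacellulin, had 9.13, 8.73, 8.66 and 8.69 in transgenic arrays 1 to 4, against 8.52, 8.26, 8.28 and 8.09 in wild type arrays 1 to 4.

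Adam10 thus did not overlap between groups and rose by 0.51 on the log2 scale (limma adjusted p = 0.0312). The call was lost without any one of 6 arrays, all but transgenic array 3 and wild type array 1 (limma adjusted p up to 0.0815). The other Adam10 probe sets, at log2 fold changes of 0.54 and 0.26, did not overlap between groups either and did not pass (limma adjusted p = 0.0833 and 0.108). Adam17, encoding the main sheddase of TGF alpha, HB-EGF and amphiregulin, averaged 7.41 ± 0.13 in transgenic and 7.08 ± 0.13 in wild type samples (SD, n = 4 each). Its log2 fold change of 0.33 did not pass (limma adjusted p = 0.0823), though its groups did not overlap. Groups did not overlap for 15.0% of all probe sets, in either direction.

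Of 22 measured genes for receptor inhibitors, ubiquitin ligases and phosphatases, there were 5 that rose, 0 that fell and 17 that did not pass. Over all genes 5.99% rose and 4.98% fell, and the lists were not tested as sets. Sh3kbp1, whose product CIN85 binds the ubiquitin ligase CBL in receptor endocytosis, had 5.67, 5.86, 6.19 and 6.23 in transgenic arrays 1 to 4 and 4.69, 5.20, 5.04 and 5.30 in wild type arrays 1 to 4. It did not overlap between groups and rose 1.91-fold (log2 fold change 0.93 ± 0.16, SE; limma adjusted p = 0.00346), and its other 2 probe sets passed too. The size is approximate, since this probe set lay below the array median on the 4 wild type arrays and the other 2 lay below it on all 8 arrays. Ptpn1, encoding the phosphatase PTP1B, which dephosphorylates EGFR, rose by 0.65 (limma adjusted p = 0.0105), while its second probe set, at 0.28, did not pass (limma adjusted p = 0.207).

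Spry1, encoding a Sprouty inhibitor of receptor tyrosine kinase signalling, rose by 0.60 (limma adjusted p = 0.0165), a call lost without wild type array 3 (limma adjusted p = 0.0585). The remaining genes of the list that rose were Cblc, encoding a CBL ubiquitin ligase, and Socs5, encoding a suppressor of cytokine signalling. Both Cblc probe sets rose, by 0.44 and 0.74, the first of these calls being lost without any one of 5 arrays (limma adjusted p up to 0.0998). Socs5, at a log2 fold change of 0.32, lost its call without any one of the 8 arrays (limma adjusted p up to 0.142). Errfi1 and Lrig1, which encode inhibitors that EGF receptor activity induces or that bind the receptor, had log2 fold changes of -0.01 and 0.01 and did not pass.

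Where 5.99% of all genes rose and 4.98% fell, 1 of 23 adaptors and proximal signalling genes rose, 0 fell and 22 did not pass. The 1 was Nck2, an SH2 and SH3 adaptor, with 6.36, 6.47, 6.47 and 6.03 in transgenic arrays 1 to 4 and 6.04, 5.64, 5.76 and 5.67 in wild type arrays 1 to 4. Transgenic array 4 lay just below wild type array 1, so the groups touched, and the log2 fold change was 0.55 ± 0.13 (SE; limma adjusted p = 0.0196). Nck2 lost its call without transgenic array 2 or 3 or wild type array 2 or 3 (limma adjusted p up to 0.0716), and its dimmer probe set, at -0.11, did not pass.

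Of 14 measured transcripts that EGF receptor signalling induces in other cells, 0 rose, 2 fell and 12 did not pass. Over all genes 5.99% rose and 4.98% fell. Dusp6, encoding an ERK phosphatase that ERK activity induces, had 4.49, 4.48, 4.57 and 4.47 in transgenic arrays 1 to 4, against 5.14, 5.38, 5.36 and 5.46 in wild type arrays 1 to 4. It lay below the median on all arrays, so its size is approximate, and it fell by 0.83 on the log2 scale (SE 0.10; limma adjusted p = 0.000243). Cited2, encoding a transcriptional co-regulator, fell on both probe sets, by 0.89 and 0.94 (limma adjusted p = 0.00639 and 0.005). The early response genes Fos and Egr1 were at log2 fold changes of 0.61 and 0.59 and did not pass (limma adjusted p = 0.166 and 0.428). Phlda1 and Plaur, at 0.38 and 0.40, did not pass either (limma adjusted p = 0.0531 and 0.110). Groups did not overlap for 4 of the 14 genes, and for 2019 of all 12393 genes. The 4 were Dusp6 and Cited2, lower in transgenic samples, and Phlda1 and Plaur, higher in them.

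**Figure D3:**
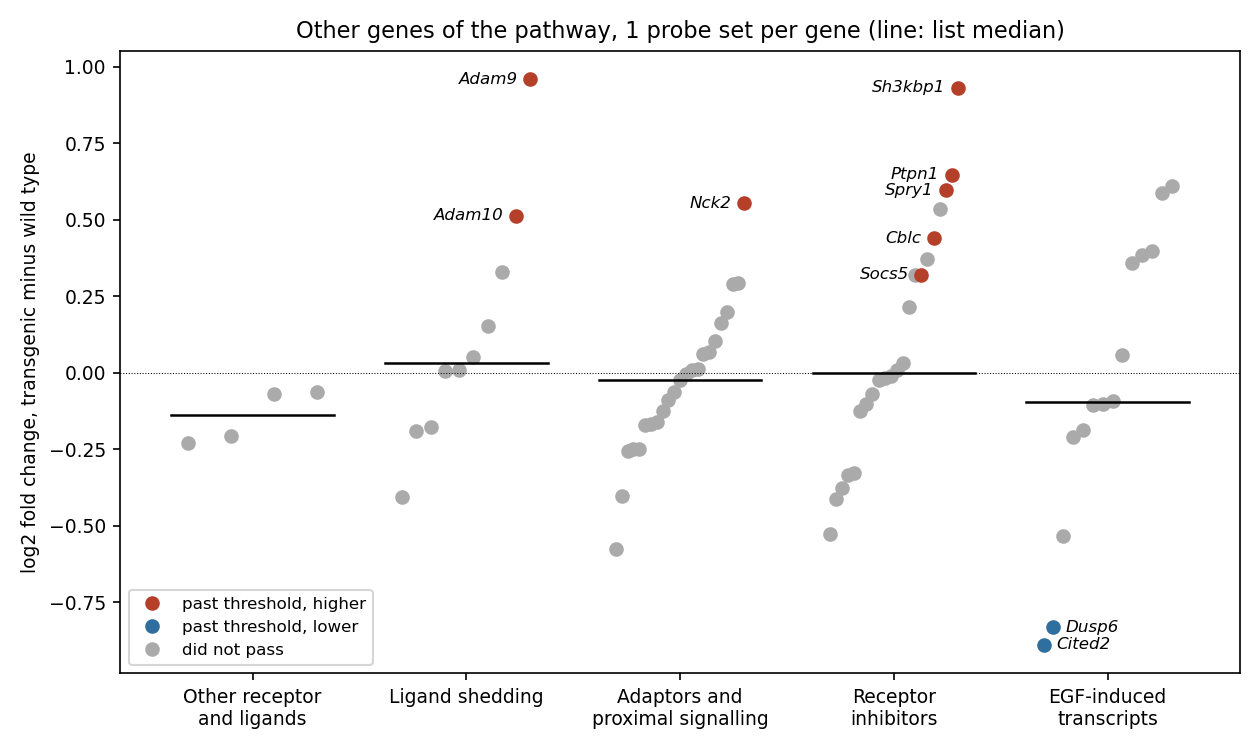
Log2 fold change (y axis, transgenic minus wild type) of each measured gene in the 5 pathway lists, with the list median as a line; red and blue mark genes higher and lower past the threshold, which are named. Of 73 genes, the 8 that rose lie in the shedding, adaptor and inhibitor lists, and the 2 that fell among the EGF-induced transcripts. Over all genes 5.99% rose and 4.98% fell, and the lists were not tested as sets.

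As a description, the genes whose centred values lay closest to those of Tgfa over the 8 arrays were Cd81, encoding a tetraspanin, Ctsd, encoding the lysosomal protease cathepsin D, and Prr13. Their root mean square differences from Tgfa were 0.063, 0.067 and 0.071 on the log2 scale. Their log2 fold changes were 0.41, 0.44 and 0.45, beside 0.48 for Tgfa.

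Marker transcripts of several cell types differed between the groups. Of 8 measured luminal epithelial markers 5 rose and 0 fell, and of 10 basal markers 6 fell and 0 rose. Of 12 smooth muscle markers 3 fell, of 11 fibroblast markers 2 fell, and of these 23 stromal markers 0 rose. Of 8 endothelial markers 0 rose and 0 fell, and of 10 macrophage markers 1 rose and 9 did not pass. Of all 12393 genes, 5.99% rose and 4.98% fell. Mean levels over the arrays ranged from 10.68 to 10.79 in transgenic and up to 10.19 in wild type samples for the luminal list, and from 5.58 to 5.73 in transgenic and from 6.12 to 6.29 in wild type samples for the basal list. For fibroblasts they ranged from 6.67 to 6.90 in transgenic and from 6.74 to 8.0 in wild type samples, and for smooth muscle from 7.43 to 7.73 in transgenic and from 7.81 to 8.43 in wild type samples. The luminal markers, named after their values were seen, included Elf3, Cd24a, Cdh1, Epcam and Krt8, which rose by 1.26, 1.18, 0.82, 0.76 and 0.48 on the log2 scale. Krt19 and Krt18, at 0.39 and 0.18, did not pass. Hoxb13, a homeobox gene of prostate epithelium in the same list, was at -0.14 and did not pass (limma adjusted p = 0.640). It averaged 10.25 ± 0.11 in transgenic and 10.39 ± 0.25 in wild type samples (SD, n = 4 each). All 5 seminal vesicle markers lay below the median on every array. Log2 RMA values have no 0, and in whole tissue fewer cells of a type cannot be told apart from less RNA per cell.

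A stromal score, the mean centred log2 value of the smooth muscle and fibroblast markers, was between -0.40 and -0.17 in transgenic arrays and at -0.17, 0.76, 0.28 and 0.19 in wild type arrays 1 to 4. Wild type array 2 had the highest score, the highest Hbegf value and the lowest Egf value of its group. With the score as a covariate, the log2 fold change of Hbegf was -0.35 ± 0.23 (SE) on 1418350_at and -0.12 ± 0.16 on 1418349_at, and neither passed (limma adjusted p = 0.619 and 0.865). That of Egf was -1.01 ± 0.15 (SE) and passed (limma adjusted p = 0.00353). Tgfa was at 0.60 ± 0.15 (SE; limma adjusted p = 0.0576) and Erbb3 at 0.30 ± 0.16 (SE; limma adjusted p = 0.472). Without the score these values were -0.78 and -0.56 for the Hbegf probe sets, -0.53 for Egf, 0.48 for Tgfa and 0.39 for Erbb3. Over all probe sets, 898 passed with the score, against 2227 without it. Of the 10 other pathway genes that had passed, Adam9, Sh3kbp1 and Dusp6 also passed with the score, and Adam10, Nck2, Ptpn1, Spry1, Cited2, Cblc and Socs5 did not (limma adjusted p from 0.0593 to 0.533). The log2 fold changes of Ptpn1, Spry1, Cited2 and Cblc were then 0.69, 0.67, -0.85 and 0.62, against 0.65, 0.60, -0.89 and 0.44 without the score, with larger SEs. Those of Adam10, Nck2 and Socs5 were 0.33, 0.32 and 0.27, against 0.51, 0.55 and 0.32 without it. The part of stromal content in these results was not tested beyond this fit.

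**Figure D4:**
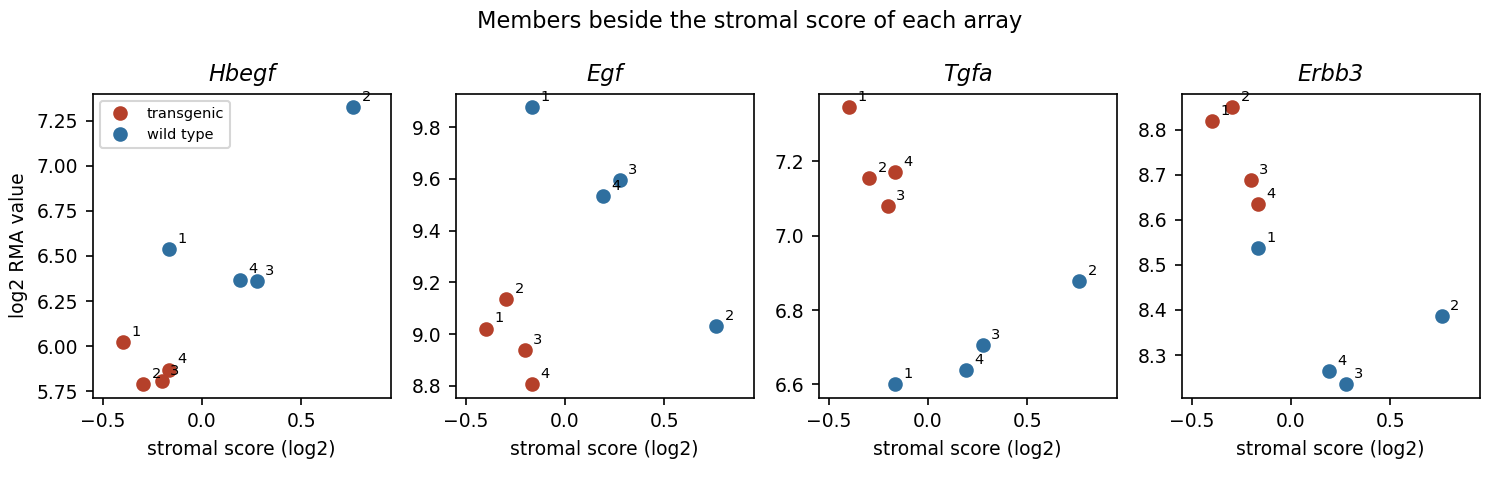
Log2 RMA values (y axis, its own range in each panel) of Hbegf, Egf, Tgfa and Erbb3 against the stromal score of each array (x axis, mean centred log2 value of the smooth muscle and fibroblast markers), with transgenic arrays in red, wild type arrays in blue and the array number beside each point. Wild type array 2, at a score of 0.76, has the highest Hbegf and the lowest wild type Egf value.

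Handling of the tissue was not measured itself, and a list of 10 immediate early genes was read in its place. Of these, 3 rose and 0 fell, where 5.99% of all genes rose and 4.98% fell. The 3, named after their values were seen, were Jun, Dusp1 and Btg2, at log2 fold changes of 0.76, 1.27 and 0.55. Fos and Egr1 are in this list and in the list of EGF-induced transcripts. The immediate early score was between 0.15 and 0.29 in transgenic arrays, and at -0.38, 0.34, -0.31 and -0.42 in wild type arrays 1 to 4, so wild type array 2 lay above the transgenic arrays. With this score as a covariate, a setting chosen after seeing the data, Hbegf fell by 1.23 on the log2 scale on 1418350_at and by 0.91 on 1418349_at (limma adjusted p = 0.000744 and 0.00343). Egf was then at -0.19 (limma adjusted p = 0.746), Tgfa at 0.36 (limma adjusted p = 0.191) and Erbb3 at 0.39 (limma adjusted p = 0.205). Over all probe sets, 1169 passed with the immediate early score, against 2227 without it. RNA quality was followed through control probe sets for Gapdh and beta actin, whose 3 prime minus 5 prime difference was 1.12 ± 0.19 in transgenic and 1.47 ± 0.09 in wild type samples (SD, n = 4 each). With it as a covariate, also chosen after seeing the data, 0 of the 17 probe sets passed in limma, 3 had an unadjusted p under 0.05, and 419 of all probe sets passed, against 2227 without it. The log2 fold changes were then 0.41 ± 0.18 for Tgfa, 0.27 ± 0.18 for Erbb3, -1.08 ± 0.32 and -0.62 ± 0.28 for the Hbegf probe sets 1418350_at and 1418349_at and -0.49 ± 0.28 for Egf (SE), with SEs larger than those without the covariate. Among the other pathway genes, Dusp6 and Cited2 passed with either covariate, Adam9 and Nck2 with the immediate early score alone, and the remaining 6 with neither. Of these 6, Sh3kbp1 had log2 fold changes of 0.81 and 1.10 and Ptpn1 of 0.57 and 0.64 with the immediate early score and the RNA difference, against 0.93 and 0.65 without a covariate. Spry1 was at 0.41 and 0.42, against 0.60, Cblc at 0.34 and 0.34, against 0.44, Adam10 at 0.54 and 0.42, against 0.51, and Socs5 at 0.39 and 0.28, against 0.32. The part of handling and RNA quality in these results was not tested beyond these fits.

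**Figure D5:**
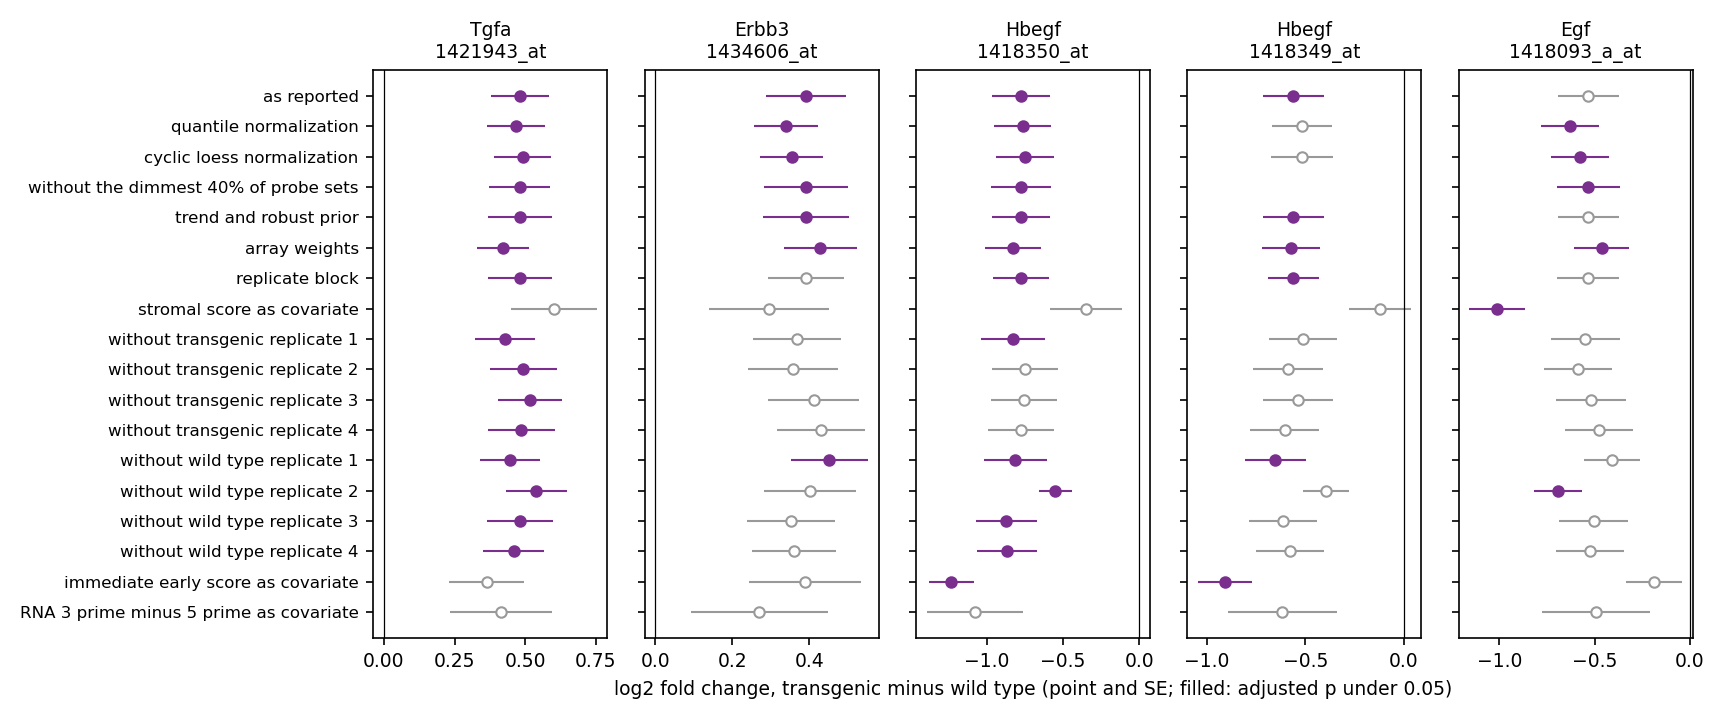
Log2 fold change (x axis, transgenic minus wild type, its own range in each panel) with its SE for the Tgfa, Erbb3, Hbegf and Egf probe sets under each setting (y axis); filled points have an adjusted p under 0.05. Tgfa passes without any single array and misses with each of the 3 covariates, while Egf ranges from -1.01 with the stromal score to -0.19 with the immediate early score as covariate.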

How the data were processed

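The authors deposited log2 values; the submitters' processing notes name RMA, whose version is not given in the sources used here. Its steps are background correction, quantile normalization and probe summary, so a shift common to all transcripts would be removed. Array medians lay between 5.40 and 5.51. The number of arrays limits the precision.

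Of 22690 probe sets, 64 controls were left out. The platform annotation names 1 gene for 20380 probe sets, several for 691 and none for 1555; symbols were updated by gene identifier from RefSeq (GRCm38.p6), and 29 kept theirs. Genes outside the family use the brightest probe set with 1 symbol.

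A linear model of transgenic minus wild type was run in limma 3.58.1 (R 4.3.3; lmFit and eBayes on every probe set), Benjamini-Hochberg adjusted over 22626, threshold 0.05. The fit was checked on simulated data. The rule for names takes every member probe set, up to 3 called genes of each pathway list (otherwise the smallest p) and the 3 genes most like the member with the smallest p. The members and lists were chosen with earlier results of these data known. Alternatives were 2 normalizations, a filter on dim probe sets, a trend with robust prior, array weights, replicate number as a block, 3 covariates, probe set means, thresholds and leaving out each array.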

Additional observations from a re-analysis of the deposited data

Results flagged for a closer look

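A sample lay far from the other samples of its group in 5 of the 72 groups of 4 values examined, and chance gives about 1 in 20. Adam10 was at 9.13 in transgenic array 1, against 8.66 to 8.73 in the other transgenic arrays. Ptpn1 was at 8.44 in wild type array 3, against 8.89 to 8.94 in the other wild type arrays. The immediate early score was 0.29 in transgenic array 4, against 0.15 to 0.16 in the other transgenic arrays, and 0.34 in wild type array 2, against -0.42 to -0.31 in the other wild type arrays. The macrophage marker score was -0.068 in transgenic array 1, against 0.06 to 0.08 in the other transgenic arrays.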

How the results depend on the processing

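The 2 higher and 2 lower probe sets of the family numbered 2 and 2 under quantile and cyclic loess normalization, without the dimmest 40% of probe sets and with a trend and robust prior, and 2 and 3 with array weights. The Hbegf probe set 1418349_at could not be fitted under the filter, which removed it, and Egf made up the 2 lower there and under both normalizations. With the replicate block 1 was higher and 2 were lower, Erbb3 being lost (limma adjusted p = 0.0519); same-numbered arrays deviated with correlations of -0.31, 0.24, -0.20 and 0.33, and only replicate 4 correlated best with its own number, so the numbers were not taken to pair the samples. With the stromal score as covariate 0 were higher and 1 lower (Egf), with the immediate early score 0 were higher and 2 lower, and with the RNA 3 prime minus 5 prime difference 0 were higher and 0 lower, both covariates chosen after seeing the data. At an unadjusted p under 0.05 in limma, 1, 2 and 1 were higher under these 3 covariates, and 1, 2 and 2 lower. At a threshold of 0.01 none was higher or lower (0 and 0), and with over 1.5-fold 0 were higher and 1 lower. Leaving out each array gave 1 to 2 higher and 0 to 2 lower probe sets, with 0 lower without transgenic array 2, 3 or 4 and 3 lower at an unadjusted p under 0.05 in each of these fits. Counted anew over all 73 other pathway genes in each setting, the calls numbered 10 as reported, 20 with array weights, 5 with the stromal score, 2 with the RNA difference and 5 to 15 without each array, 6 without transgenic array 2 and 5 without wild type array 3. Over all probe sets, the calls numbered 2227 as reported and 3587 with array weights. They numbered 898 with the stromal score, 1169 with the immediate early score and 419 with the RNA difference. Without each array they numbered 1387 to 2525, with 1387 without transgenic array 2 and 1511 without wild type array 3. The cause was not tested. No probe set changed sign among called values under any of these settings. Dim probe sets can miss changes, which limits Ereg, Erbb4 and most Egfr and Tgfa probe sets.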
